A study of Mus musculus with 9 samples.

Results

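The 10 genes described here build the junctions that hold heart muscle cells together and let current pass between them. They were chosen by symbol: the connexins Gja1, Gja5 and Gjc1, the desmosome genes Dsg2, Dsc2, Dsp, Pkp2 and Jup, and the adherens junction genes Cdh2 and Ctnna3. All 10 were found among the 15779 genes of the deposited tables, and all 10 passed the filter on low values in each comparison. Hearts of adult C57BL/6J mice were profiled by sequencing of polyA RNA, with 3 libraries in each of 3 groups: saline-treated wild-type mice, saline-treated mice homozygous for Mybpc3 R946X, and Mybpc3 R946X homozygotes given high-dose-exABE8e. R946X is a premature stop codon in Mybpc3, whose product, cardiac myosin-binding protein C, sits on the thick filaments of heart muscle. ABE8e is an adenine base editor, which turns A into G at a guided site; the labels do not define exABE8e further, and the study's design text has its editors carried by the viral serotype AAV9 and expressed in cardiomyocytes. The treated group was compared with saline controls, so virus and editor were not separated. Dose, age and sex are not given in the labels. Nothing says how the hearts relate to litters or pools, so the p-values measure only the spread between these libraries.

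Heart muscle cells meet end to end at the intercalated disc, where 3 kinds of junction are mixed. Desmosomes tie the cells together through the cadherins desmoglein and desmocollin, which plakoglobin, plakophilin and desmoplakin anchor to desmin filaments. Adherens junctions tie N-cadherin to actin through catenins, and gap junctions are channels of connexins that pass ions from cell to cell. Inherited defects of desmosome genes are a known cause of arrhythmogenic cardiomyopathy, and loss or displacement of connexin 43 is well known in diseased ventricles.

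The labels were checked on Mybpc3 itself. Its deposited values were 1510, 1795 and 2039 in the wild-type libraries, 133, 142 and 186 in those of saline mutants, and 1024, 1374 and 1332 after treatment. All values are on the authors' scale, on which each library sums to between 999152 and 999382, so they behave as shares of a fixed total rounded to whole numbers. Sequencing depth is unknown. The cardiomyocyte markers were all present (7 of 7). Their summed level ranged from 29869 to 31354 in wild-type, 30301 to 34831 in saline mutant and 32191 to 35056 in treated hearts. The markers did not move together: between the saline groups 4 were higher and 3 lower in mutants, none called by the rule below. Tnni3 and Tnnt2 differed by -0.50 and -0.33 on the log2 scale, and Actn2 and Actc1 by 0.36 and 0.32, all 4 without overlap. Wild-type replicate 1, saline mutant replicate 3 and treated replicate 1 had Xist values of 119, 351 and 39, against 0 in the other 6, and treated replicate 1 also had a Ddx3y value of 38. Transcripts of at least 6000 bases were low against those under 1500 bases in wild-type replicate 1 and treated replicate 1, by log2 differences of -0.48 and -0.29, while the other 7 libraries lay between -0.04 and 0.31. Called differences of the junction genes and their partners are given with and without these libraries. The 3 Xist libraries are 1 from each group, so leaving them out took 1 library from both groups of every comparison.

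In saline-treated mutant hearts Gja1, the connexin 43 gene, fell to 0.547 of its wild-type level, and the other 9 junction genes did not pass the test. After treatment Gja1 values stood above all saline mutants, without passing the test over all genes. Genes counted as called when limma on log2(value + 1) gave them an adjusted p (Benjamini-Hochberg, over all genes tested) under 0.05. That gave 1 of 10 members in the mutant against wild-type comparison, where 7.7% of 13632 genes were called. It gave 0 of 10 in treated against saline mutants, where 0.0147% of 13636 were called, and 0 of 10 in treated mutants against wild type, where 0.989% of 13554 were called. In each comparison 2 members had an unadjusted p under 0.05, beside 19.7%, 8.29% and 12.5% of all genes. The members' median log2 fold changes were -0.02, 0.14 and -0.004, beside 0.07, -0.02 and 0.01 for all genes. The mutant against wild-type calls split into 622 higher and 428 lower genes; upper-quartile scaling gave 622 and 684. For treated mutants against wild type the split was 117 and 17, and 116 and 46 with that scaling. For treated against saline mutants it was 1 and 1, and 8 and 2 with that scaling.

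**Figure D1:**
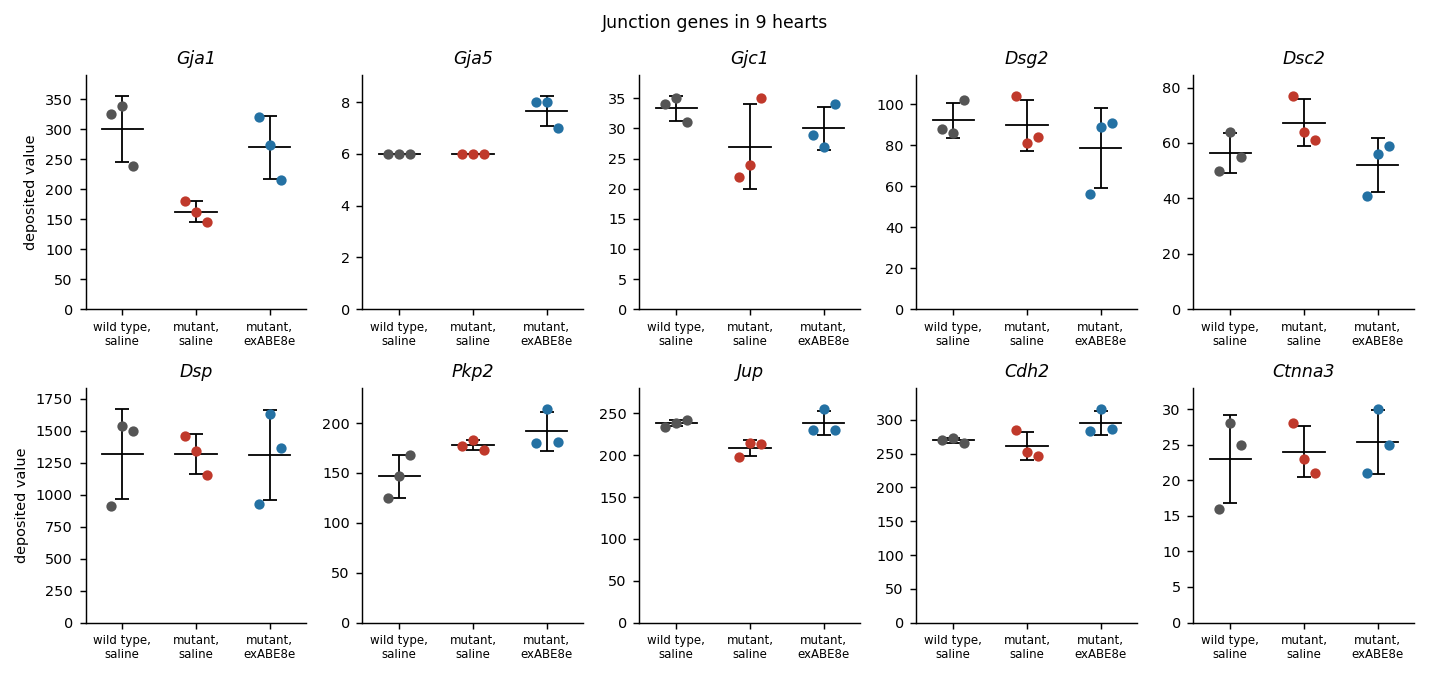
Deposited value of each junction gene in the 9 hearts, on the authors' scale; points are libraries, horizontal bars the mean and error bars the SD (n = 3 per group). Gja1 values of the saline mutants lie between 146 and 180, below those of both other groups, which start at 215; most other panels show overlapping groups.

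Gja1 encodes connexin 43, the main gap junction protein of the working ventricle. It lies on chromosome 10 from 56377330 to 56402513 of GRCm38, on the plus strand. The 250 bases before its RefSeq start (chr10:56377050-56377299, GRCm38.p6, plus strand) are shown because Gja1 was the junction gene that changed. Capitals mark the match to the AP-1 motif TGANTCA, the element bound by Jun and Fos proteins.

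Gja1 promoter: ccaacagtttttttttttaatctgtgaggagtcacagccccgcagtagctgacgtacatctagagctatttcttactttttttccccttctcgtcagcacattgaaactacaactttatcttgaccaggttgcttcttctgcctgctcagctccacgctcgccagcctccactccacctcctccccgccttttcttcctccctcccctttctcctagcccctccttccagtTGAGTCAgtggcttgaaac

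The match begins 19 bases before the start, and the motif, which reads alike on both strands, is present in 6.75% of 32851 RefSeq windows of the same length. A TATA box (TATAAA, in 12.4% of windows), a T-box element (AGGTGT, 11.8%), an NKX2-5 core (CAAGTG, 11.6%) and a GC box (GGGCGG, 32.7%) were searched on both strands and not found in these 250 bases. The AP-1 match overlaps none of them. RefSeq's table held such a window for 5 of the 10 members. Matches of letters do not show binding.

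The wild-type hearts had Gja1 values of 325, 339 and 238, the saline mutants 180, 162 and 146, and the treated mutants 320, 274 and 215. The means were 300.7 ± 54.7, 162.7 ± 17.0 and 269.7 ± 52.6 (SD, n = 3). Every saline mutant heart was below every wild-type and every treated heart, while the wild-type and treated hearts overlapped. Against wild type, Gja1 fell by 0.87 on the log2 scale in saline mutants (SE 0.15, limma adjusted p = 0.00903), a fold of 0.547 with a 95% interval of 0.432 to 0.693. In size it was at the 95.1 percentile of all genes' absolute changes.

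Treated hearts had Gja1 values 1.64-fold those of saline mutants, with a 95% interval of 1.28 to 2.10 (log2 0.71, SE 0.16), but the change was not called over all genes (limma adjusted p = 0.229). The unadjusted p was 0.00156, and this was the 93rd smallest of the 13636 genes tested. Against wild type the treated hearts differed by -0.16 (95% interval -0.59 to 0.28, limma adjusted p = 0.796). On a scale from the saline mutant mean (0) to the wild-type mean (1), the 3 treated hearts stood at 1.14, 0.81 and 0.38. In the authors' deposited values Gja1 had log2 fold changes of -0.95 (saline mutant against wild type), 0.77 (treated against saline mutant) and -0.17 (treated against wild type). It was among the genes in the authors' short tables for the first and second. The authors' column named as adjusted p equals an unadjusted one. After Benjamini-Hochberg adjustment of the authors' p-values, Gja1 had 0.000216 in the first comparison and 0.263 in the second.

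The Gja1 call between the saline groups was lost in the 2 alternatives that left out wild-type replicate 1. Without wild-type replicate 1 the difference was -0.81 with a limma adjusted p of 0.0504, and without the 3 Xist libraries it was -0.73 with 0.0773. In the other 18 alternatives Gja1 was called, and over all 20 the adjusted p ranged from 0.00289 to 0.0773. Without treated replicate 1 the difference between treated and saline mutants was 0.58 (limma adjusted p = 0.429), and over the 20 alternatives it ranged from 0.50 to 0.87 with adjusted p between 0.0599 and 0.821.

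The level of Gja1 in whole heart depends on the mix of cells as well as on each cell, and fewer cells of a type cannot be told apart from less RNA per cell. Fibroblast markers (6 of 6 present) summed to 1200 to 1586 in wild-type, 1935 to 2983 in saline mutant and 1452 to 1848 in treated hearts. Endothelial markers (7 of 7) summed to 1009 to 1378, 906 to 1051 and 933 to 1082, and smooth muscle and pericyte markers (6 of 6) to 1206 to 1468, 940 to 1204 and 1001 to 1155. In the latter list Acta2 was called lower in saline mutants than in wild type (-1.09, limma adjusted p = 0.00721). Its values were 257, 328 and 189 in wild-type, 118, 118 and 117 in saline mutant and 186, 170 and 161 in treated hearts. No other marker of that list was called between the saline groups, and Pdgfrb differed by 0.03. Macrophage markers (6 of 6) summed to 332 to 476, 366 to 695 and 354 to 467. Red blood cell markers (5 of 5) summed to 104 to 313, 69 to 85 and 140 to 158, so that the saline mutants were below both other groups, as they were for Gja1. The part of these cells in the Gja1 difference was not tested. Scaled to the cardiomyocyte markers, which did not move together, Gja1 remained called between the saline groups, with a log2 difference of -0.86. With that scaling Gja1 stood at 0.63 between treated and saline mutants. Ttn and Ryr2, which are among those markers, were 2873 and 903 in wild-type replicate 1. They were 4546 and 1660 in wild-type replicate 2 and 4746 and 1600 in replicate 3. How far this moved the scaled Gja1 differences was not tested.

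Gja5 encodes connexin 40, found in atria, the His-Purkinje system and arterial endothelium. It lies on chromosome 3 from 96904693 to 97077416. Its values were 6 in all 3 wild-type hearts, 6 in all 3 saline mutants, and 8, 8 and 7 in treated hearts, on a scale rounded to steps of 1. Treated hearts were above both other groups without overlap, yet neither difference was called: log2 0.31 against saline mutants (limma adjusted p = 0.640) and 0.31 against wild type (adjusted p = 0.363). Arterial endothelial markers (7 of 7), which include another connexin, Gja4, summed to 124 to 131 in wild-type, 103 to 137 in saline mutant and 137 to 146 in treated hearts. Conduction system markers (7 of 7) summed to 75 to 84, 71 to 87 and 67 to 81. The part of either cell type in the Gja5 values was not tested. Of 6 atrial markers only 3 had rows in the tables; Myl7, Sln and Bmp10 were not analysed here, and the remaining 3 did not move together. Between the saline groups Dkk3 (1.89, limma adjusted p = 0.00763) and Myl4 (1.19, adjusted p = 0.0125) rose and Stard10 fell by 1.60 (adjusted p = 0.00428). Their summed level (20 to 25, 22 to 46 and 19 to 29) is therefore no reading of atrial content.

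Gjc1 encodes connexin 45, a connexin of the nodes and conduction system and of the early heart. It lies on chromosome 11 from 102799579 to 102819700. It had values of 34, 35 and 31 in wild type, 22, 24 and 35 after saline in mutants and 29, 27 and 34 after treatment. Saline mutant replicate 3 stood with the wild-type hearts and the other 2 mutants below them, so the groups overlapped. The log2 difference between saline mutant and wild type was -0.32 (95% interval -0.71 to 0.07, limma adjusted p = 0.357). Treated hearts differed from saline mutants by 0.17 (adjusted p = 0.851) and from wild type by -0.15 (adjusted p = 0.672).

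The balance between connexins was also compared within each library, where scaling cancels. The ratio of Gja5 to Gja1 was 0.0185, 0.0177 and 0.0252 in wild type, 0.0333, 0.0370 and 0.0411 in saline mutant and 0.0250, 0.0292 and 0.0326 in treated hearts. All 3 saline mutants had a higher ratio than any wild-type or treated heart. The lowest saline mutant ratio (0.0333) and the highest treated ratio (0.0326) lay closer than the rounding of Gja5 to steps of 1 can resolve. The log2 differences were 0.87 for saline mutant against wild type and -0.36 for treated against saline mutant, each with an exact two-sided permutation p of 0.1. That is the smallest value that 3 against 3 libraries allow, and over the 18 ratio comparisons made it became 0.36 after Benjamini-Hochberg adjustment. Gja5 itself was not called between the saline groups, and the ratio contains the Gja1 values, so it is no independent support for the Gja1 difference.

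**Figure D2:**
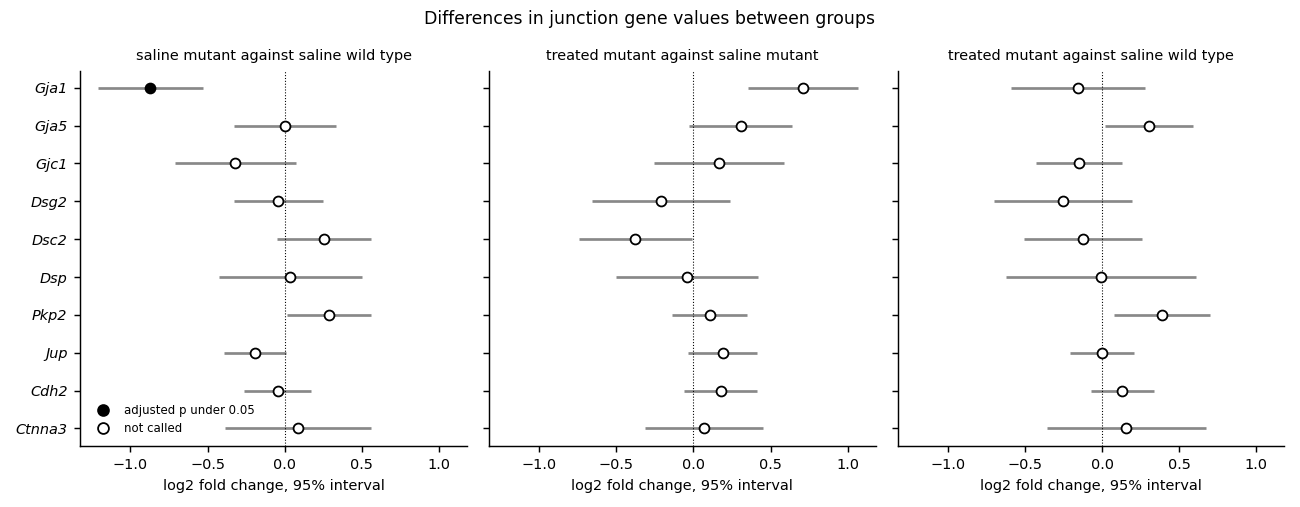
Log2 fold change (x axis) of each junction gene (y axis) in the 3 comparisons, with 95% intervals from limma; filled points passed an adjusted p of 0.05. Gja1 at -0.87 between the saline groups is the only filled point, and the interval of Gja1 between treated and saline mutants, 0.36 to 1.07, also lies above 0 although it was not called.

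Among desmosome genes no member was called in any comparison. Dsg2, on chromosome 18 from 20558074 to 20604521, encodes desmoglein 2, the desmoglein of heart muscle. Its values were 88, 86 and 102 in wild-type, 104, 81 and 84 in saline mutant and 56, 89 and 91 in treated hearts. Treated replicate 1 was the low value and the groups overlapped. The log2 difference between the saline groups was -0.04 (95% interval -0.33 to 0.25, limma adjusted p = 0.914). Treated hearts differed by -0.21 from saline mutants (adjusted p = 0.824) and by -0.25 from wild type (adjusted p = 0.656).

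Dsc2 encodes desmocollin 2, the partner cadherin of desmoglein, and lies on chromosome 18 from 20030633 to 20059554. Its values were 50, 64 and 55 in wild-type, 77, 64 and 61 in saline mutant and 41, 56 and 59 in treated hearts. Every treated heart was below every saline mutant heart, by -0.38 on the log2 scale (95% interval -0.74 to -0.01), but the adjusted p was 0.588 in limma. Saline mutants and wild type overlapped, with a difference of 0.25 (adjusted p = 0.346), and treated hearts differed from wild type by -0.12 (adjusted p = 0.817). Without treated replicate 1, the lowest of the 9, the treated against saline mutant difference was -0.22 (adjusted p = 0.782).

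Dsp encodes desmoplakin, the plaque protein that grips desmin filaments, and lies on chromosome 13 from 38151294 to 38198577. Its values were 908, 1539 and 1497 in wild-type, 1458, 1340 and 1153 in saline mutant and 929, 1630 and 1364 in treated hearts. The means were close (1314.7 ± 352.8, 1317.0 ± 153.8 and 1307.7 ± 353.9, SD, n = 3), and the spread within the wild-type and treated groups came mostly from replicate 1 of each. Those are the 2 libraries low in long transcripts, and the Dsp transcript, at 9592 bases, is the longest among the members. The log2 differences were 0.04, -0.04 and -0.01, with 95% intervals of -0.43 to 0.50, -0.50 to 0.42 and -0.62 to 0.61. Without wild-type replicate 1 the saline groups differed by -0.21 (limma adjusted p = 0.486), and without treated replicate 1 treated and saline mutants differed by 0.19 (adjusted p = 0.829). A change of Dsp smaller than these intervals was not detectable with these libraries.

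Pkp2 encodes plakophilin 2, an armadillo protein of the plaque and the gene most often mutated in arrhythmogenic cardiomyopathy. It lies on chromosome 16 from 16213318 to 16272712. Its values were 125, 147 and 168 in wild-type, 177, 183 and 173 in saline mutant and 180, 214 and 181 in treated hearts. All 6 mutant hearts, treated or not, were above all 3 wild-type hearts. The log2 differences were 0.28 for saline mutants against wild type (95% interval 0.01 to 0.56, limma adjusted p = 0.231) and 0.39 for treated mutants against wild type (0.08 to 0.70, adjusted p = 0.287). Neither was called, and the comparisons share the wild-type hearts. Wild-type replicate 1 was the lowest of the 9, and without it the values were 0.18 (adjusted p = 0.437) and 0.28 (adjusted p = 0.618). Treated and saline mutants overlapped, with a difference of 0.10 (adjusted p = 0.844).

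Jup encodes plakoglobin, also called gamma-catenin, which serves both desmosomes and adherens junctions, and lies on chromosome 11 from 100368958 to 100397763. Its values were 234, 239 and 242 in wild-type, 198, 215 and 213 in saline mutant and 230, 255 and 230 in treated hearts. The saline mutants were below both other groups without overlap, the same order as for Gja1 but with small differences. Jup differed by -0.19 between saline mutant and wild type (95% interval -0.39 to 0.01, limma adjusted p = 0.274) and by 0.19 between treated and saline mutant (-0.03 to 0.41, adjusted p = 0.652). Wild-type and treated means were both 238.3, and their difference was 0.00 (95% interval -0.21 to 0.20). Relative to beta-catenin (Ctnnb1), its close relative, the Jup ratio was 0.606, 0.511 and 0.608 in wild-type, 0.485, 0.508 and 0.421 in saline mutant and 0.604, 0.610 and 0.523 in treated hearts. These ratios differed by -0.29 and 0.30 on the log2 scale, each with an exact permutation p of 0.1 and 0.36 after adjustment over the 18 ratio comparisons.

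Of the adherens junction genes, Cdh2 encodes N-cadherin, the classical cadherin of heart muscle, and lies on chromosome 18 from 16588877 to 16809246. Its values were 270, 273 and 266 in wild-type, 285, 253 and 247 in saline mutant and 284, 316 and 287 in treated hearts. Treated hearts were above wild type without overlap, by 0.13 on the log2 scale (95% interval -0.07 to 0.34, limma adjusted p = 0.596). The saline groups differed by -0.05 (-0.26 to 0.17, adjusted p = 0.850), and treated and saline mutants by 0.18 (-0.06 to 0.41, adjusted p = 0.684). Among the members other than Gja5, which tied at 6, Cdh2 had the smallest spread in wild type, with a coefficient of variation of 1.30%.

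Ctnna3 encodes alpha-T-catenin, a catenin of heart and testis that links N-cadherin to actin and binds plakophilin 2. It lies on chromosome 10 from 63430098 to 65003667. Its values were 16, 28 and 25 in wild-type, 28, 23 and 21 in saline mutant and 21, 30 and 25 in treated hearts, and the groups overlapped in all 3 comparisons. The log2 differences were 0.09, 0.07 and 0.16, with 95% intervals of -0.39 to 0.56, -0.31 to 0.45 and -0.36 to 0.67 and limma adjusted p of 0.878, 0.944 and 0.836. Without wild-type replicate 1 the saline difference was -0.15 (adjusted p = 0.742). The ratio of Ctnna3 to its widely expressed relative Ctnna1 was 0.0315, 0.0433 and 0.0437 in wild type, below the 0.0601, 0.0497 and 0.0440 of saline mutants (log2 difference 0.38, exact permutation p = 0.1, 0.36 adjusted). The closest of these, 0.0437 and 0.0440, lay within the rounding of Ctnna3. The lowest, 0.0315, was wild-type replicate 1, a library low in long transcripts. Apart from this Ctnna3 to Ctnna1 difference and the Gja5 to Gja1 and Jup to Ctnnb1 differences given above, the ratio comparisons, among them Dsc2 to Dsg2 and Pkp2 to Dsp, had exact permutation p of 0.2 or more.

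In all, the groups did not overlap for 3 of 10 members between saline mutants and wild type (Gja1, Pkp2 and Jup), where 21.6% of all genes did not overlap. Between treated and saline mutants it was 4 of 10 (Gja1, Gja5, Dsc2 and Jup) against 9.82%, and between treated mutants and wild type 3 of 10 (Gja5, Pkp2 and Cdh2) against 14.6%. With 10 members, counts of this size are given as a description.

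Dsp and Ctnna3 followed the long-transcript property of the libraries closely. Over the 9 libraries, Dsp correlated with the difference between long and short transcripts at r = 0.90 and Ctnna3 at r = 0.89, although the Ctnna3 transcript is of middle length at 3682 bases. Pkp2 gave 0.67, Dsc2 0.59, Dsg2 0.45 and Cdh2 0.32. Jup gave 0.08 and Gja1 -0.36. The correlations are descriptions over libraries that share their scaling, and 2 libraries hold most of the range. In those 2, both low in long transcripts, Gja1 was 325 (wild-type replicate 1) and 320 (treated replicate 1, the highest treated value). The Gja1 differences without each of them, smaller and not called, are given above. With the length trend removed from each library, an alternative chosen after seeing the data, Gja1 between the saline groups was -0.91 (limma adjusted p = 0.00751) and no other member was called.

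**Figure D3:**
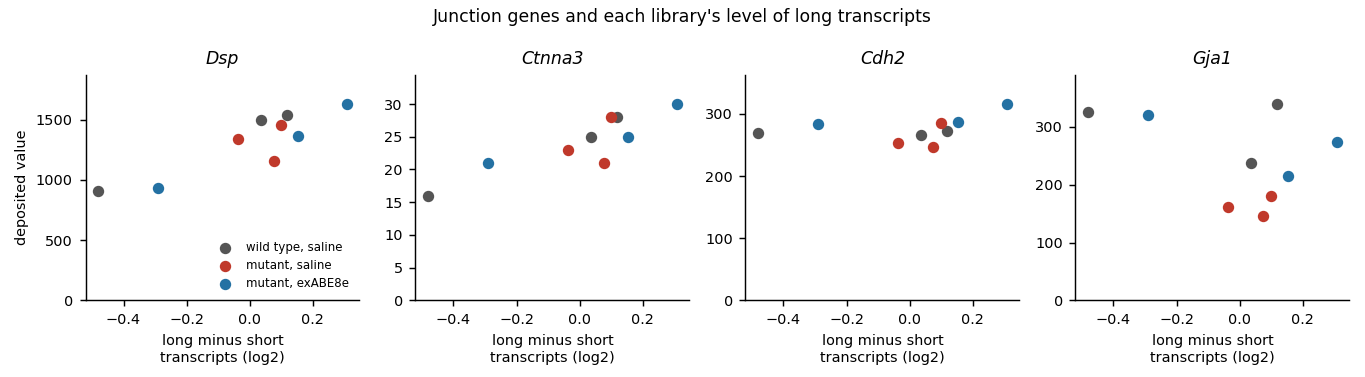
Deposited values (y axis) of Dsp, Ctnna3, Cdh2 and Gja1 against each library's median log2 level of long minus short transcripts (x axis); each point is 1 of the 9 libraries, coloured by group. Dsp and Ctnna3 are lowest or near lowest in wild-type replicate 1 and treated replicate 1, at -0.48 and -0.29. Gja1 has values of 325 and 320 in those 2 libraries. The lowest Gja1 values, 146 to 180, are the 3 saline mutants near the middle of the axis.

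The members were also set beside each other and beside all genes with a mean of at least 30, by the Pearson correlation of log2(value + 1) over the 9 libraries. Among members, Dsp and Ctnna3 were most alike (r = 0.92), followed by Gja5 and Cdh2 (0.74), Dsg2 and Dsc2 (0.72) and Gja1 and Jup (0.71). Gja1 was most like Ctbp1 (0.97), Egln3 (0.96) and Slc38a3 (0.94). Egln3, an oxygen-sensing prolyl hydroxylase, had values of 76, 95 and 64 in wild-type, 32, 33 and 27 in saline mutant and 73, 53 and 50 in treated hearts. Slc38a3, a glutamine transporter, had 65, 69 and 63, then 48, 44 and 35, then 73, 70 and 54. In both, as in Gja1, every saline mutant was below every other heart. Jup was most like Art1 (0.96), Gpr157 (0.95) and Trip10 (0.94), and Dsp most like Pdpr (0.99), Kif16b (0.98) and Ppp1r37 (0.98). Pkp2 was most like Aff1, Vcp and Ptpn11 (0.98, 0.98 and 0.97), and Ctnna3 most like Igf2r, Arhgap35 and Ankrd52 (0.98, 0.97 and 0.97). Dsg2 was most like Ppip5k2 (0.91), Dsc2 like Rbbp6 (0.91), Cdh2 like Gfod1 (0.90), Gjc1 like Ldb1 (0.95) and Gja5 like Lman2 (0.96). With 9 libraries and 4980 or 4981 genes searched for each, these correlations are given as a description.

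The genes that work with these junctions were read from 8 lists of 121 genes, of which 84 had rows and 78 were tested between the saline groups. There, 8 were called higher and 4 lower, 15.4% of those tested beside 7.7% of all genes. The lists were chosen with earlier results of these data known, so this share is given as a description. The count depended on single libraries: it was 4 higher and 3 lower without wild-type replicate 1 or 2, 5 and 2 without wild-type replicate 3, 5 and 3 without the 3 Xist libraries, and 3 and 0 without saline mutant replicate 2. It was also 3 and 4 with limma's variances left without a floor for rounding, where Gja3, Jun, Nrap, Perp, Prkca and Xirp1 lost their calls. Calls over all genes fell as well, from 1050 to 609, 761 and 640 without wild-type replicate 1, 2 or 3. They were 556 without the 3 Xist libraries, 314 higher and 192 lower without saline mutant replicate 2, and 858 without the floor. Nrap and Xirp2 were called with each of the 6 libraries left out in turn, but Nrap was not called without the floor (limma adjusted p = 0.0670). Between treated and saline mutants limma called 0 of 77, beside 0.0147% of all genes. There 8 of the 77 had an unadjusted p under 0.05, beside 8.29% of all genes. Between treated mutants and wild type 1 of 77 was called, Xirp2 (1.30%, beside 0.989% of all genes).

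Among disc partners and channel anchors (13 of 13 tested), 3 rose and 1 fell in saline mutants. Xirp2, an actin-binding Xin repeat protein of the disc, had values of 325, 461 and 411 in wild-type, 2146, 2407 and 2411 in saline mutant and 1155, 932 and 1442 in treated hearts. It rose by 2.55 on the log2 scale between the saline groups (limma adjusted p = 5.98e-05), and treated hearts were still 1.55 above wild type (adjusted p = 0.0258). Treated hearts lay below saline mutants without overlap, by -1.001 (adjusted p = 0.139). The Xirp2 call between treated and wild-type hearts was absent in 7 of the 20 alternatives, among them leaving out any 1 wild-type library or treated replicate 1. Its relative Xirp1 (log2 0.90, limma adjusted p = 0.0253) and Nrap, which ties terminal actin filaments to the adherens junction (0.997, adjusted p = 0.0132), also rose in saline mutants. Xirp1 was called with only 2 of the 6 libraries left out in turn, and stood at 0.87 without wild-type replicate 1 (adjusted p = 0.113) and 1.05 without the 3 Xist libraries (adjusted p = 0.0383). Nrap stood at 0.81 (adjusted p = 0.0387) and 0.89 (adjusted p = 0.0293), and Xirp2 at 2.41 and 2.38, all called.

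Fgf13, a fibroblast growth factor homologous factor that stays inside the cell, was 67, 62 and 65 in wild-type, 45, 39 and 31 in saline mutant and 40, 51 and 47 in treated hearts. It fell by 0.75 in saline mutants (limma adjusted p = 0.0132), and treated hearts were below all wild-type hearts and overlapped the saline mutants (adjusted p = 0.694). The call was lost without wild-type replicate 1 (-0.73, adjusted p = 0.0631) or saline mutant replicate 2, and kept without the 3 Xist libraries (-0.59, adjusted p = 0.0484).

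**Figure D4:**
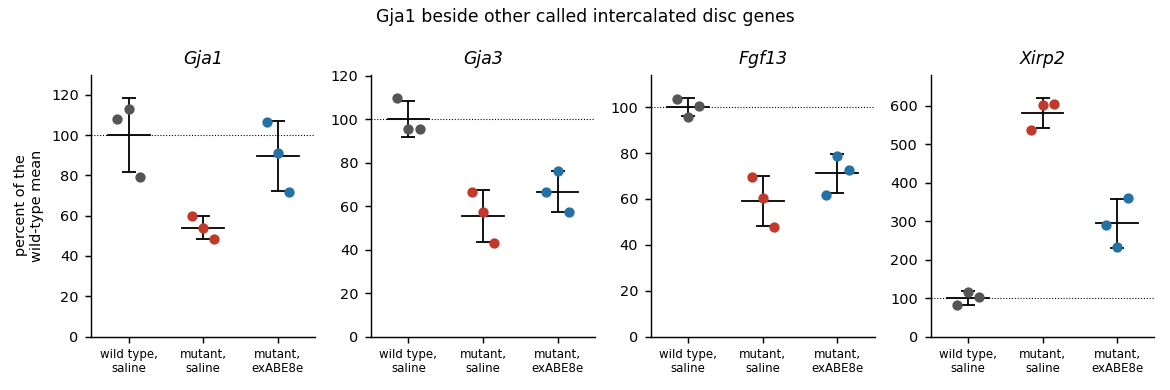
Gja1, Gja3, Fgf13 and Xirp2 in each heart as percent of the wild-type mean (y axis), by group; points are libraries, bars the mean and SD (n = 3). Gja1 averaged 54.1% of wild type in saline mutants and 89.7% in treated hearts, while Xirp2 was higher than wild type in all 6 mutant hearts.

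Of the other connexins and pannexins, 4 of 20 were tested and 1 was called. Gja3, which encodes connexin 46, a connexin best known from the lens, was 23, 20 and 20 in wild-type, 14, 12 and 9 in saline mutant and 14, 16 and 12 in treated hearts. It fell by 0.81 in saline mutants (limma adjusted p = 0.0215), and treated hearts were also below all wild-type hearts, by -0.56 (adjusted p = 0.145). The call was lost without wild-type replicate 1 (-0.75, adjusted p = 0.104) or 3, without saline mutant replicate 2, and without the 3 Xist libraries (-0.59, adjusted p = 0.0987). Gja4, an endothelial connexin, was 17, 14 and 16, then 14, 15 and 17, then 16, 12 and 17, with a saline difference of -0.03 (adjusted p = 0.963).

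Among the other desmosome genes, 5 of 14 were tested between the saline groups; the remaining 9, desmogleins, desmocollins and plakophilins best known from skin, were not analysed here. Des and Perp rose and Ppl fell. Des, the desmin filament to which desmoplakin binds, was 1772, 1720 and 1941 in wild-type, 2605, 2728 and 2682 in saline mutant and 2811, 3044 and 2236 in treated hearts, a rise of 0.56 (limma adjusted p = 0.0138). Perp, a desmosomal membrane protein and p53 target, rose by 0.44 (adjusted p = 0.0403), and Ppl, the plakin periplakin, fell by 1.25 from values of 9, 8 and 14 to 4, 3 and 4 (adjusted p = 0.0100). The Perp call was lost with each of the 6 libraries left out in turn, with adjusted p up to 0.125 (0.43 and 0.108 without wild-type replicate 1), without the 3 Xist libraries (0.35, adjusted p = 0.129) and with each of the 3 other scalings. Des was not called with median-of-ratios or upper-quartile scaling, nor without wild-type replicate 2 or saline mutant replicate 2, but was called without wild-type replicate 1 (0.55, adjusted p = 0.0442) and without the Xist libraries (0.54, adjusted p = 0.0417). Ppl was called without wild-type replicate 1 (-1.32, adjusted p = 0.0443), but not without the Xist libraries (-1.38, adjusted p = 0.0586) or saline mutant replicate 2.

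None of the 14 tested catenin, vinculin and other adherens junction genes was called by limma between the saline groups, nor any of the 10 other cadherins. An unadjusted p under 0.05 was reached by 5 of the 14 and 4 of the 10, beside 19.7% of all genes. With upper-quartile scaling Ctnnal1, Nectin2, Cdh13 and Cdh20 were called lower. Cdh13, T-cadherin, was 153, 192 and 183 in wild-type, 133, 129 and 132 in saline mutant and 156, 169 and 156 in treated hearts (-0.41, limma adjusted p = 0.0566). Ctnna1, the widely expressed alpha-catenin, was 508, 647 and 572 in wild-type, 466, 463 and 477 in saline mutant and 534, 600 and 538 in treated hearts. It differed by -0.29 in saline mutants without overlap, but was not called (limma adjusted p = 0.181). Ctnnb1 differed by 0.09 (adjusted p = 0.742), and Vcl, vinculin, by 0.40 (adjusted p = 0.415). Of 14 genes for connexin 43 transport, turnover and phosphorylation, only Prkca was called. This protein kinase C gene rose from 29, 39 and 41 in wild type to 59, 60 and 58 in saline mutants (0.70, adjusted p = 0.0182), and treated hearts had 50, 43 and 58. The Prkca call was lost without saline mutant replicate 2 or 3 and without the floor for rounding (limma adjusted p = 0.0551). It was kept without wild-type replicate 1 (0.55, adjusted p = 0.0286) and without the 3 Xist libraries (0.56, adjusted p = 0.0393).

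Of 11 tested transcription factors that act on cardiac connexin genes, Jun rose and Tbx5 fell in saline mutants. Jun, an AP-1 subunit, was 53, 52 and 46 in wild-type, 98, 68 and 74 in saline mutant and 86, 71 and 74 in treated hearts (0.64, limma adjusted p = 0.0321). It was called with only 1 of the 6 libraries left out in turn (saline mutant replicate 2) and with none of the 3 other scalings. It stood at 0.68 without wild-type replicate 1 (adjusted p = 0.0863) and 0.73 without the 3 Xist libraries (adjusted p = 0.0922). Whether Jun has a part in the Gja1 difference was not tested. Tbx5, a T-box activator of conduction genes, was 20, 22 and 21, then 15, 13 and 15, then 13, 21 and 19 (-0.52, adjusted p = 0.0366). It was called with none of the 6 libraries left out in turn, with adjusted p up to 0.178 (-0.56 and 0.0854 without wild-type replicate 1), nor without the 3 Xist libraries (-0.59, adjusted p = 0.0922) or with scaling to cardiomyocyte markers. Neither Nkx2-5 (-0.09, adjusted p = 0.754) nor Gata4 (0.18, adjusted p = 0.466) was called. Of 7 tested Wnt and beta-catenin target genes only Myc was called, with 4, 5 and 4 in wild-type and 8, 10 and 9 in saline mutant hearts (0.91, adjusted p = 0.0109). The call was lost without wild-type replicate 1 (0.86, adjusted p = 0.0571) or 3, without saline mutant replicate 2, and without the 3 Xist libraries (0.86, adjusted p = 0.0946).

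**Figure D5:**
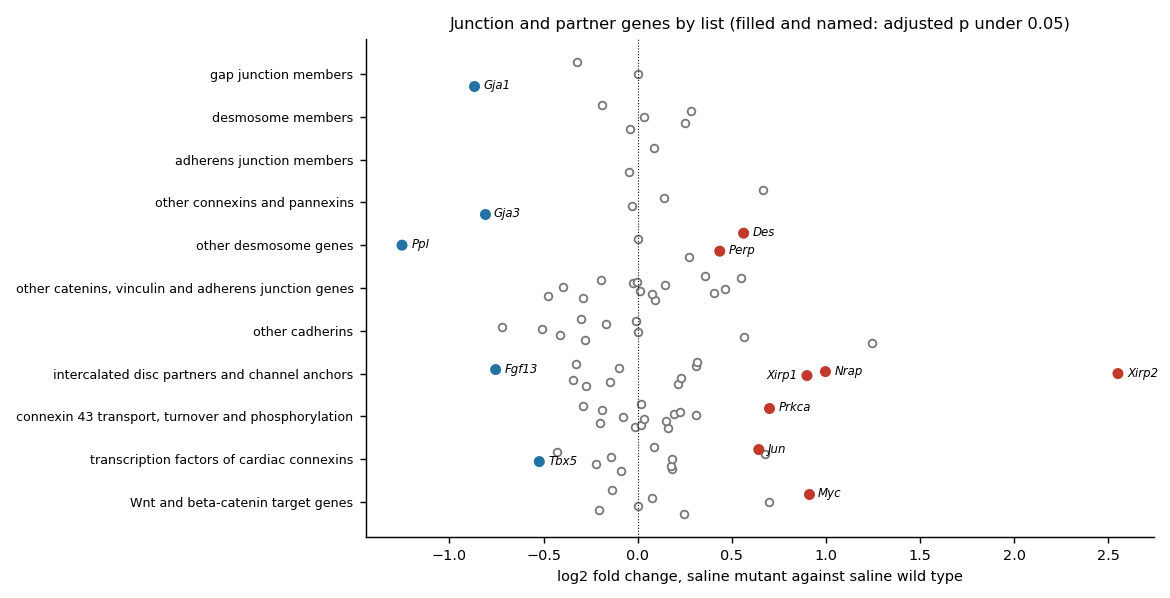
Log2 fold change of saline mutant against wild type (x axis) for every tested gene of the member and partner lists (rows); filled and named points passed an adjusted p of 0.05 in limma, red higher and blue lower, and vertical scatter within a row has no meaning. Gja1 is the only filled point among the members, and the disc partners hold 3 of the 8 partner genes that rose and 1 of the 4 that fell.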

How the data were processed

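The authors deposited 1 table per pair of groups; per the submitters' processing notes HISAT2, HTSeq, DESeq2 and mm10 were used, with no versions or roles given. The per-library values are handled as a score, because the deposited whole numbers sum to nearly the same total in every library; no header or label names the unit, and counting error is unknown. The deposited log2 fold changes and p-values are the authors' own, and the deposited column named as an adjusted p-value equals an unadjusted one. GENCODE M21 (GRCm38) gave positions and transcript lengths.

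R 4.3.3 and limma 3.58.1 were used to fit log2(value + 1) for each pair of groups alone, for genes with a mean of at least 1. Residual variances were floored at the rounding variance (1/12 on the value scale), and prior degrees of freedom came from genes with a mean of at least 30. The method was also run on simulated data, with normal noise drawn independently for each gene and library. The simulation held no shift shared within a library, such as that of long transcripts, and its outcome is not given here. Fold changes on this scale understate changes of low genes. Ratios used exact permutation tests.

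The members, lists and variance step were chosen with earlier results of these data known. Named were Mybpc3, all members, up to 4 called genes per partner list, and the 3 genes most like each member; others (Egln3 and Slc38a3 by values, Gja4, Ctnna1, Ctnnal1, Nectin2, Cdh13, Cdh20, Ctnnb1, Vcl, Nkx2-5 and Gata4) were picked afterwards. Of 14 marker lists, 9 are given beside results. Summed levels in wild-type, saline mutant and treated hearts of the rest were 3 to 6, 8 to 17 and 9 to 15 for epicardium. They were 1 to 1, 6 to 11 and 4 to 8 for epithelium (2 of 6 genes). Between the saline groups these sums rose mostly through Krt8 (3.05, limma adjusted p = 0.000253) and Krt18 (2.02, adjusted p = 0.00109). Wt1, also of the epicardium list, differed by -0.41 and was not called. The sums are therefore no reading of these cell types. Marker genes named singly were also picked afterwards. T and B cell (2 of 6), adipocyte (1 of 5) and skeletal muscle (3 of 6) markers were at most 1, 1 and 3. 1 gene of the partner lists is not reported here and was left out of their counts.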

Additional observations from a re-analysis of the deposited data

How the results depend on the processing

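Each of 3 comparisons was repeated under 20 alternatives, of which removing the transcript length trend was chosen after seeing the data. Over 33 log2 fold changes (10 members and Mybpc3) and 657 alternative values, 33 had the opposite sign, none of them called, and 2 calls were lost, both of Gja1 between the saline groups as given in the report. No member gained a call. Where the cause of a change is not named below, it was not tested.

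Between the saline groups, the count of called genes (1050) was 655 with scaling to cardiomyocyte markers. It was 556 without the 3 Xist libraries, with 0 members called. Leaving out 1 library at a time, with fewer samples in each fit, gave 506 (without saline mutant replicate 2) to 1029 genes and 0 to 1 members. Dropping wild-type replicate 1 or 3 left 609 or 640, and dropping saline mutant replicate 3 left 688. Dsp turned to -0.037 and -0.060 with median-of-ratios and upper-quartile scaling, -0.12 without the Xist libraries and -0.13 with the length trend removed. Ctnna3 turned to -0.0054 with upper-quartile scaling and -0.058 without the Xist libraries. With 1 library left out, Dsg2 ranged from -0.15 to 0.034, Dsp from -0.21 to 0.17 and Ctnna3 from -0.15 to 0.24.

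Between treated and saline mutants, the count (2; 1130 genes had an unadjusted p under 0.05) was 10 with median-of-ratios, 10 with upper-quartile and 7 with cardiomyocyte scaling. It was 7 with a pseudocount of 5, 6 with a mean of at least 10, 32 without the rounding floor, 14 with the prior from all genes and 13 in a fit of all 9 libraries. Leaving out 1 library gave 2 to 8, with 7 without saline mutant replicate 1, 4 without treated replicate 1 and 8 without treated replicate 3. Ctnna3 turned to -0.010 with cardiomyocyte scaling and -0.015 with a sex-linked covariate, and Dsp to 0.093 without the Xist libraries and 0.0071 with the length trend removed. With 1 library left out, Dsg2 ranged from -0.33 to 0.014, Dsp from -0.22 to 0.19 and Ctnna3 from -0.054 to 0.19.

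Between treated mutants and wild type, the count (134) was 86 with all genes above 0, 77 without the rounding floor, 243 with the prior from all genes, 236 in a fit of all 9 libraries, 29 with the covariate and 9 without the Xist libraries. Leaving out 1 library gave 1 (without wild-type replicate 1) to 133. Dropping wild-type replicate 2 or 3 left 3 or 12, and dropping treated replicate 1 or 2 left 24 or 22. Ctnna3 turned to -0.049 with the covariate and Jup to 0.010 without the Xist libraries. With 1 library left out, Ctnna3 ranged from -0.075 to 0.31, Jup from -0.051 to 0.023, Dsp from -0.25 to 0.22 and Dsc2 from -0.22 to 0.036.

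Replicate numbers are shared by the groups, but same-numbered libraries deviated from their group means with correlations from -0.42 to 0.62, so the numbers were not taken as pairs. A replicate block gave 30 called genes between treated and saline mutants and 35 between treated mutants and wild type. It left Gja1 the only member called, between the saline groups. Depth is unknown, and 3 libraries per group limit the precision.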
